A study of Mus musculus with 8 samples.

Results

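Meox1, Meox2, Runx1, Runx2, Runx3, Scx, Sox9, Sox4 and Mkx encode transcription factors that have been linked to fibroblast activation or to the formation of tendon, cartilage and bone. They were taken by symbol from the deposited count table, where all 9 were found, each once, among 56748 genes. The libraries came from WT cardiac fibroblasts of 1-day-old C57BL/6J mice, grown in medium with fetal bovine serum. There were 4 untreated cultures and 4 cultures given TGF-β1, the cytokine that turns fibroblasts into matrix-producing myofibroblasts, at 10 ng/mL for 48 h. The design text describes replicates from separate litters. These are neonatal cells in culture at a single dose and time, so the values describe that model and not an adult or injured heart.

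Transcription factors of these families bind DNA through different domains. MEOX1 and MEOX2 are homeodomain proteins of the somites and their derivatives, and MEOX1 has been described as a switch gene of stressed cardiac fibroblasts. RUNX proteins bind DNA through the Runt domain together with the partner CBFβ. RUNX1 is best known from blood formation, RUNX2 from bone and RUNX3 from T cells and sensory neurons. SCX (scleraxis, a basic helix-loop-helix protein) and MKX (mohawk, a homeodomain protein) direct tendon formation, and SCX also activates collagen genes in cardiac fibroblasts. SOX9 and SOX4 carry an HMG box. SOX9 drives cartilage and heart valve development, and SOX4 acts in many embryonic progenitors.

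RefSeq promoter windows, which run from 250 bases before to 50 bases after a transcript start in GRCm38.p6, were at hand for 5 of the 9 genes, in 7 windows. Meox1, Scx, Sox9 and Mkx had no entry. The RUNX genes share a repeated copy of the RUNX core ACCACA at the upstream (distal) starts of Runx1 and Runx3 and at the single Runx2 start in the table. It is shown because the text below sets the responses of these paralogues beside each other. The stretches lie at chr16:92826027-92826052 (minus strand), chr17:44814585-44814610 (minus strand) and chr4:135120505-135120530 (plus strand), with the ACCACA letters in capitals. The sequences are from RefSeq. The repeat was noticed on reading the windows and was searched for afterwards.
Runx1, distal start: taaacaACCACAgaACCACAagttgg
Runx2: caaacaACCACAgaACCACAagtgcg
Runx3, distal start: ccctcaACCACAgaACCACAaggcca

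The first ACCACA of the repeat lies 29 bases into the Runx1 transcript, 24 bases into the Runx2 transcript and 134 bases before the distal Runx3 start (position -134). The Runx2 window holds a further single ACCACA at position -80. The unbroken run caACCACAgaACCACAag of 18 bases is common to all 3 windows, and Runx1 and Runx2 share a run of 22 bases. The pattern ACCACANNACCACA, searched on both strands, was present in 7 of 32851 windows, or 0.0213%. These were the windows of the 3 RUNX genes, a window of Gm16225 that overlaps that of Runx3, and windows of Gm12236, Gm15462 and Olfr24. The single core ACCACA, or TGTGGT on the other strand, was present in 16.8% of all windows. A match is a string of letters and does not show binding.

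The window of Meox2, the only member that fell, holds TGTGGT at positions -208 and -80. The core was thus present upstream of the start both in Meox2 and in Runx2, which rose, and the proximal Runx1, proximal Runx3 and Sox4 windows held none. Meox2 alone fell, and Meox1, Scx, Sox9 and Mkx had no window. Whether the core is related to the direction of change was therefore not tested. The Meox2 window is shown as that of the member that fell, and the proximal Runx1 window as an example without a match, from position -250 to -11, at chr12:37108290-37108529 (plus strand) and chr16:92697340-92697579 (minus strand), with TGTGGT in capitals. CAGAC or GTCTG, the short SMAD-binding letters, was absent from both. It was present in the Sox4 window and in both Runx3 windows, and in 49.6% of all windows. The proximal Runx1 window holds 35 CG dinucleotides and the distal one 2, against a median of 7 over all windows. Counts per gene do not tell which Runx1 start was used.
Meox2: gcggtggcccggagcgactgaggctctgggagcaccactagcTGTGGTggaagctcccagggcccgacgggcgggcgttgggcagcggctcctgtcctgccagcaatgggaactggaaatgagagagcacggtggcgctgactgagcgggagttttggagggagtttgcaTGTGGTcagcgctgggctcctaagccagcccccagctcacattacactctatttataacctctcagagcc
Runx1, proximal start: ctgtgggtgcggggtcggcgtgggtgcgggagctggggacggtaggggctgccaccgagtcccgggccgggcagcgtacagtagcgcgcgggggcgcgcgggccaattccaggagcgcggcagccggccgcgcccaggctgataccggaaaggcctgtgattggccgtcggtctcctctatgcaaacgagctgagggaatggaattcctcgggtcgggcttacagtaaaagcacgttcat

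Reads counted on genes ranged from 14340740 to 17176898 per library. Untreated replicate 1 stood apart in ribosomal RNA, which made up 0.0322% of the reads there (Clopper-Pearson 95% interval 0.0312% to 0.0331%, for counting error alone) and 1.05% to 2.47% in the other 7 libraries. Leaving it out ended none of the calls made for the members below. The 11 fibroblast markers checked all passed the count filter, with a summed level of 19296.6 to 21064.4 CPM (normalised read counts, scaled to a common library size) in untreated and 22653.0 to 24029.5 CPM in treated libraries. Of these, 3 rose and 8 fell. All 10 cardiomyocyte markers fell, with sums of 781.2 to 849.3 CPM untreated and 423.7 to 504.3 CPM treated. Epicardial and mesothelial markers had sums of 1153.2 to 1217.1 and 897.1 to 920.1 CPM, and 4 of 8 fell. Mural cell markers had sums of 1085.6 to 1122.1 and 1183.2 to 1280.2 CPM (3 rose and 2 fell of 6 tested), and Schwann and neural crest markers sums of 2.56 to 3.78 and 2.68 to 3.28 CPM (none of 2 tested was called). Whether these other cells had a part in the changes described next was not tested. In bulk RNA, a change in the number of cells that express a gene and a change in RNA per cell cannot be told apart.

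After 48 h of TGF-β1, 7 of the 9 genes were higher and Meox2 was lower. Runx1, Meox1, Mkx and Scx rose at least 2-fold, Runx2 rose 1.41-fold, and Sox4 and Sox9 rose 1.13-fold each. Runx3 was too low to be tested. In the edgeR quasi-likelihood test across 13960 genes, 36.0% of all genes tested were called at a Benjamini-Hochberg adjusted p under 0.05, with 17.6% higher and 18.5% lower. Among the 965 tested genes to which the deposited table assigns a transcription factor family, 29.5% were called, 11.3% higher and 18.2% lower. The median size of the log2 fold change was 1.11 over the 8 tested members, 0.15 over the tested transcription factor genes and 0.16 over all genes tested. The member counts describe a list that was put together with earlier results of these data in view.

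**Figure D1:**
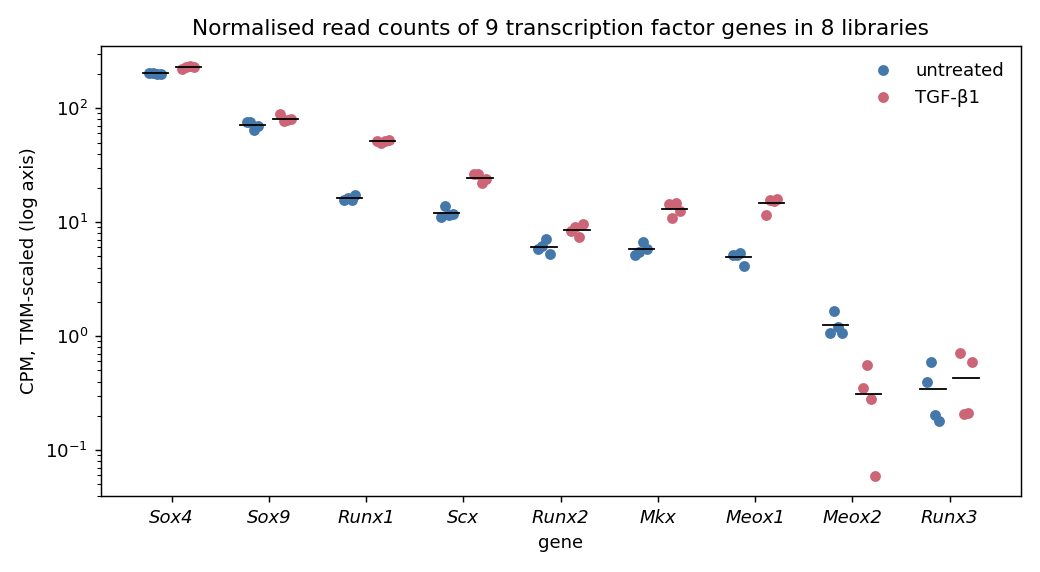
Each point is the normalised read count of a gene in 1 library, in CPM on a log axis, for 4 untreated (blue) and 4 TGF-β1-treated (red) cultures, and each black line is a group mean. The groups overlap for Runx3, and Meox2 alone is lower after treatment.

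**Figure D2:**
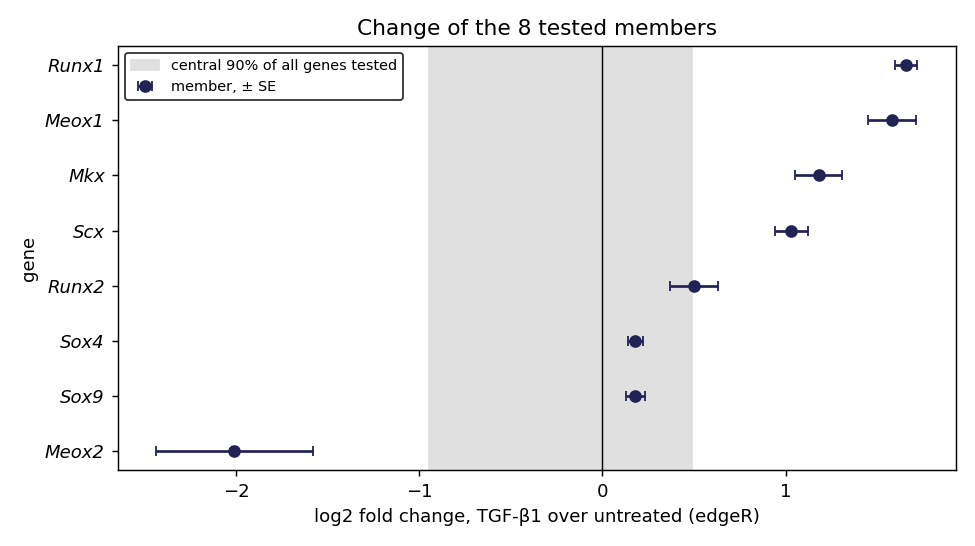
Points give the log2 fold change of the 8 tested genes (edgeR) with its SE as the bar, on a horizontal axis of log2 units, and the grey band spans the central 90% of all genes tested (-0.95 to 0.49). Runx1, Meox1, Mkx and Scx lie to the right of the band, Runx2 at its edge and Meox2 to the left of it.

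Meox1 (ENSMUSG00000001493, GRCm39 chromosome 11, 101768336 to 101785200, minus strand) stood at 5.11, 5.17, 5.32 and 4.12 CPM in untreated replicates 1 to 4. In the treated replicates it stood at 11.6, 15.8, 15.3 and 15.9 CPM. Treated replicate 1 was the lowest of its group, yet it lay above every untreated library. The group means were 4.93 ± 0.551 and 14.6 ± 2.07 CPM (SD, n = 4 and 4). This is a log2 fold change of 1.58 with an SE of 0.13 (adjusted p = 1.26e-09, edgeR). With treated replicate 1 left out the log2 fold change was 1.67.

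Meox2, the paralogue of Meox1 and a brake on proliferation in vascular cells (ENSMUSG00000036144, chromosome 12, 37158539 to 37229533, plus strand), moved the other way from a much lower level. Its raw read counts were 16, 25, 18 and 18 in untreated and 5, 8, 4 and 1 in treated libraries, so every treated library was below every untreated one. In CPM the mean fell from 1.25 ± 0.279 to 0.312 ± 0.204 (SD, n = 4 and 4). The log2 fold change was -2.01 with an SE of 0.43 (adjusted p = 0.000701, edgeR). Meox2 passed the count filter through its untreated libraries alone, since each treated library had fewer than 10 reads, so a gene at this level that entered the test had to differ. With no filter its log2 fold change was again -2.01 with an SE of 0.45. The p-values of that fit were far smaller at a similar SE (Runx1, edgeR adjusted p = 9.26e-117 against 2.63e-15 with the filter). Its adjusted p for Meox2 (edgeR, 9.85e-05) therefore adds no evidence. The size rests on few reads, 77 over the untreated and 18 over the treated libraries. It was -1.63 without treated replicate 4, which had the single read, and -2.44 without treated replicate 2. Meox2 is also expressed in endothelium. Of 8 endothelial markers 7 were tested, of which 3 rose and 2 fell, and their summed level was 103.6 to 107.6 CPM in untreated and 105.0 to 111.3 CPM in treated libraries. All 8 had reads, and the junction gene Cldn5 was too low to be tested.

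On the authors' FPKM scale, which divides by gene length and so allows levels of different genes to be set side by side, Meox1 made up 80.7% ± 2.98 of the MEOX total in untreated cells (SD, n = 4). In treated cells its share was 98.0% ± 1.27 (SD, n = 4). The total itself went from 2.70 ± 0.306 to 6.60 ± 0.903 FPKM (SD, n = 4 and 4). Within each library, the log2 ratio of Meox1 to Meox2 reads was 1.62 to 2.23 in untreated and 4.75 to 7.48 in treated cultures. Its mean shifted by 3.72, and the ranges did not overlap.

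Runx1 (ENSMUSG00000022952, chromosome 16, 92398354 to 92623037, minus strand) had, of the 8 tested members, the smallest SE relative to its change. Untreated libraries stood at 15.5, 16.2, 15.8 and 17.2 CPM and treated ones at 51.7, 49.6, 51.5 and 52.1 CPM. No treated library came near the untreated range. The group means went from 16.2 ± 0.741 to 51.2 ± 1.09 CPM (SD, n = 4 and 4). It rose 3.16-fold, or by 1.66 ± 0.06 in log2 units (SE, edgeR adjusted p = 2.63e-15). By p-value it was number 39 of the 13960 genes tested.

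Runx1 is a blood cell gene as well. The 8 leukocyte markers had a summed level of 31.7 to 44.6 CPM in untreated and 27.8 to 38.4 CPM in treated libraries. Of the 6 tested, the macrophage gene Adgre1 rose and Laptm5 fell (log2 fold changes 0.68 and -0.46), and Ptprc, which encodes CD45, was at -0.32 ± 0.22 in log2 units (SE, edgeR adjusted p = 0.263). The T cell gene Cd3e had no read in any library, which allows up to 0.175 to 0.209 CPM per library. The treated range of the leukocyte sum overlapped the untreated one and did not reach above it. Whether leukocytes had a part in the change of Runx1 was not tested.

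Runx2, the master regulator of osteoblasts (ENSMUSG00000039153, chromosome 17, 44806874 to 45125684, minus strand), changed less. It stood at 5.84, 6.23, 7.08 and 5.31 CPM in untreated and 8.32, 8.99, 7.39 and 9.66 CPM in treated libraries. The groups did not overlap, but the highest untreated and the lowest treated library were close. The rise was 0.50 ± 0.13 in log2 units (SE, edgeR adjusted p = 0.00465), or 1.41-fold. Its count is slightly uncertain, since 4.10% of its exonic bases in GENCODE M39 lie under exons of the opposite-strand gene Supt3 (72 to 108 reads per library) and 5.87% under those of the antisense RNA Runx2os1 (at most 6 reads). Whether reads were counted by strand is not stated in the labels.

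Runx3 (ENSMUSG00000070691, chromosome 4, 134847963 to 134905301, plus strand) had 6, 9, 3 and 3 reads in untreated and 10, 3, 3 and 10 reads in treated libraries. It did not pass the count filter. With no filter the fitted change was 0.34 ± 0.59 in log2 units (SE, edgeR adjusted p = 0.76), so a difference was not detectable at this depth.

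Among the RUNX genes, Runx1 took 64.0% ± 3.66 of the summed FPKM in untreated and 80.1% ± 2.04 in treated cells (SD, n = 4 and 4). The share of Runx2 went from 32.8% ± 3.32 to 18.3% ± 1.71, although its own level rose. The RUNX total went from 2.07 ± 0.0655 to 5.23 ± 0.173 FPKM.

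**Figure D3:**
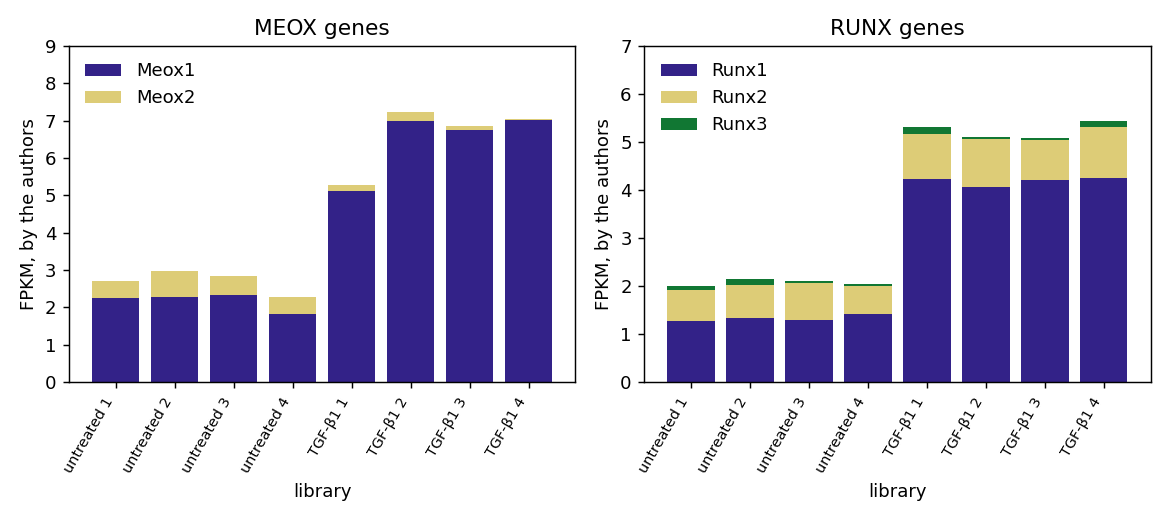
Stacked bars give the authors' FPKM of the MEOX genes (left) and RUNX genes (right) in each of the 8 libraries. Meox1 and Runx1 make up most of each treated bar, with mean shares of 98.0% and 80.1%.

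Scx and Mkx, the tendon factors, rose by similar amounts. Scx (ENSMUSG00000034161, chromosome 15, 76341652 to 76343658, plus strand) went from 11, 13.9, 11.5 and 11.7 CPM to 26.2, 26.5, 21.9 and 23.9 CPM. Every treated library was above every untreated one, and the rise was 1.03 ± 0.09 in log2 units (SE, edgeR adjusted p = 4.63e-09), or 0.99 without untreated replicate 1. Scx lies within the span of Bop1, a ribosome biogenesis gene on the opposite strand, but shares no exonic base with it. Mkx (ENSMUSG00000061013, chromosome 18, 6934518 to 7004780, minus strand) went from 5.11, 5.44, 6.67 and 5.85 CPM to 14.3, 10.8, 14.7 and 12.6 CPM. Again the groups did not overlap. The rise was 1.18 ± 0.13 in log2 units (SE, edgeR adjusted p = 8.68e-08).

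The SOX genes were the most abundant of the 9 and changed the least. Sox4 (ENSMUSG00000076431, chromosome 13, 29132902 to 29137696, minus strand) went from 204.9, 203.7, 199.2 and 199.5 CPM to 222.5, 231.5, 232.6 and 228.9 CPM. Its replicates were so close, with a coefficient of variation of 1.45% untreated and 1.98% treated, that the small rise separated the groups (0.18 ± 0.04 in log2 units, SE, edgeR adjusted p = 0.00033). Sox9 (ENSMUSG00000000567, chromosome 11, 112673050 to 112678586, plus strand) went from 76.0, 75.5, 65.0 and 70.3 CPM to 88.5, 77.5, 78.3 and 80.2 CPM. The lowest treated library lay just above the highest untreated one, and the rise was 0.18 ± 0.05 in log2 units (SE, edgeR adjusted p = 0.0138).

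These calls depended on scaling. When libraries were scaled by their totals and not by TMM, which lowered the median log2 fold change of all genes from 0.01 to -0.07, Sox4 and Sox9 kept a rise of 0.10 each but were no longer called (edgeR adjusted p = 0.0503 and 0.201). The Sox9 call was also lost without treated replicate 1 or without untreated replicate 3 (edgeR adjusted p = 0.0652 and 0.0689). Antisense RNAs overlap 18.9% of the exonic bases of Sox4 and 13% of those of Sox9, but they had at most 4 reads in any library.

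Responses were then compared between related genes through the log2 ratio of their reads within a library, which needs no scaling. With 4 against 4 libraries an exact two-sided permutation test has 70 assignments and cannot give p below 0.0286, and 6 pairs were tested. The ratios Meox1/Meox2 and Runx1/Runx2 separated the groups completely, with shifts of 3.72 and 1.17 (exact permutation p = 0.0286 each, adjusted p = 0.0857). The Runx1/Runx3 ratio shifted by 1.40 with overlapping ranges (exact permutation p = 0.0571, adjusted p = 0.114). With 2 in place of 0.5 added to each count, its exact permutation p was 0.0286 (adjusted p = 0.0571). No pair passed after adjustment over the 6. Complete separation in Meox1/Meox2 and Runx1/Runx2 alone could not bring an adjusted p under 0.05, so this outcome was set by the numbers of libraries and pairs. For Runx2/Runx3 the shift was 0.23 (exact permutation p = 0.629), for Scx/Mkx -0.15 (p = 0.486) and for Sox9/Sox4 0.00 (p = 0.971). The Sox9/Sox4 ratio was -1.61 to -1.43 in untreated and -1.58 to -1.33 in treated libraries, so these values differed by less than the replicate spread.

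**Figure D4:**
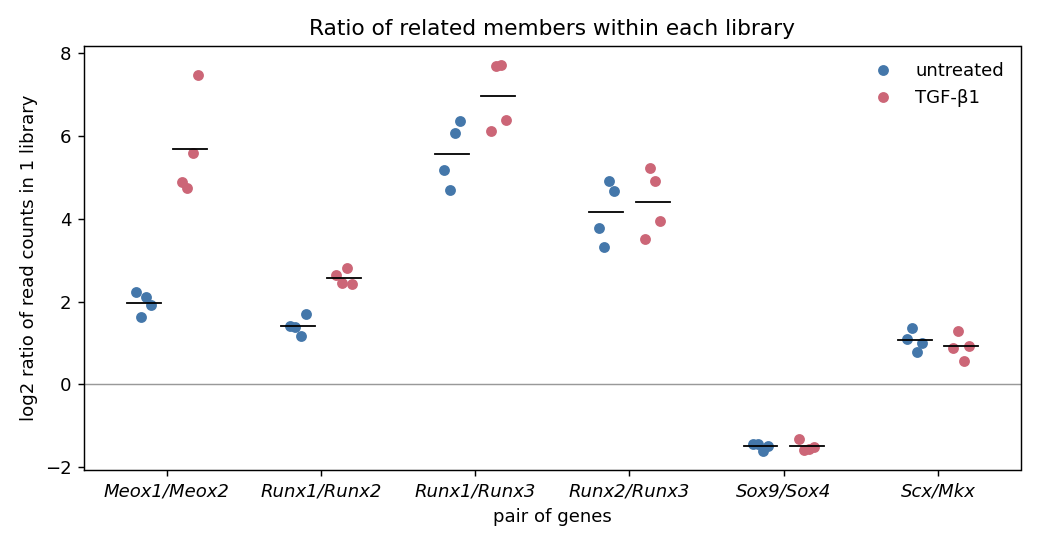
Each point is the log2 ratio of read counts of 2 related genes in 1 library (0.5 added to each count), untreated in blue and TGF-β1 in red, with black lines for the group means. The groups separate for Meox1/Meox2 and Runx1/Runx2, with shifts of 3.72 and 1.17, and lie over each other for Sox9/Sox4.

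In FPKM the order of levels in untreated cells was Sox4 (41.4 ± 0.611), Sox9 (17.1 ± 1.24), Scx (5.91 ± 0.632), Meox1 (2.18 ± 0.239), Mkx (1.39 ± 0.16), Runx1 (1.33 ± 0.0633), Runx2 (0.681 ± 0.0812), Meox2 (0.522 ± 0.116) and Runx3 (0.0677 ± 0.0384), each as mean ± SD over 4 libraries. Mkx and Runx1 overlapped, as did Runx2 and Meox2, and the other neighbours did not. In treated cells Sox4 (47.0 ± 0.901), Sox9 (19.3 ± 1.22), Scx (12.1 ± 1.08) and Meox1 (6.47 ± 0.911) kept their places, and Runx1 (4.19 ± 0.0858) stood above Mkx (3.15 ± 0.43) without overlap. Runx2 (0.956 ± 0.108) came next, and Meox2 (0.130 ± 0.085) then overlapped Runx3 (0.0846 ± 0.0509). The place of Mkx depends on its gene model, which spans 4095 exonic bases in the file and 9771 in GENCODE M39.

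Among tested transcription factor genes, 7 were called with a rise of at least 2-fold and 24 with a fall of that size, against 160 and 647 of all genes. The 7, with log2 fold change ± SE, were Lhx4 (2.06 ± 0.28), Runx1 (1.66 ± 0.06), Meox1 (1.58 ± 0.13), Sox8 (1.40 ± 0.24), Emx2 (1.30 ± 0.26), Mkx (1.18 ± 0.13) and Scx (1.03 ± 0.09). The SEs of Lhx4, Emx2 and Sox8 were the largest of these. Lhx4 and Emx2, like Meox1 and Mkx, are homeobox genes. Sox8 belongs to the SoxE group with Sox9 and Sox10.

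The genes whose course over the 8 libraries lay closest to a member were found by the root mean square difference in log2 CPM from the untreated mean. For Runx1 they were Col11a1, a minor fibrillar collagen chain, and Fstl3, an activin-binding protein, at 0.05 and 0.06. For Meox1 they were Lurap1l and the laminin chain gene Lama1 (0.15 and 0.16). Those nearest to Mkx were Atp13a5 and the cytokine gene Lif (0.12 each), and those nearest to Scx were Fxyd6 and Pik3cb (0.09 and 0.10). Snx15 and the pseudogene Gm5900 were nearest to Runx2 (0.09 and 0.10), Eif2ak4 and Dcaf17 to Sox9 (0.04 each), and Chchd7 and Spon2 to Sox4 (0.02 each). For Meox2 the nearest were Cd34 and Mrgprf at 0.48 each, but only genes of at least 5 CPM were searched and Meox2 averaged 1.25 and 0.312 CPM. Genes at its own level were thus not compared. This measure follows the size of the treatment change and, for low genes, their counting noise.

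The counts that follow for related gene lists stand against 17.6% of all genes tested called higher and 18.5% called lower, and with so few genes in a list they set no list apart. Of 6 genes for CBFβ and the TLE family, all tested, none rose and 3 fell, with a median log2 fold change of -0.13 against 0.01 over all genes tested. Cbfb was at 59.8 ± 1.09 and 63.6 ± 3.06 CPM (SD, n = 4 and 4), a difference of 0.09 ± 0.05 in log2 units (SE, edgeR adjusted p = 0.166). Tle5 fell by 0.25 ± 0.05, Tle4 by 0.31 ± 0.08 and Tle2 by 0.55 ± 0.21 on the log2 scale. The Tle2 call, at an edgeR adjusted p of 0.0404, was lost in 9 of 15 alternative fits. Without untreated replicate 1, 1 member of this list was called up and 2 down.

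Of 10 further SOX genes 8 were tested, and 1 rose and 3 fell (median log2 fold change -0.11). Sox8 went from 1.26, 1.19, 1.28 and 0.954 CPM to 2.68, 3.80, 3.17 and 2.74 CPM, a log2 fold change of 1.40 ± 0.24. Every treated library was above every untreated one. Sox6, which works with Sox5 and Sox9 in cartilage, fell by 0.49 ± 0.10, and Sox13 fell by 0.47 ± 0.10. Sox5 did not pass the test (-0.02 ± 0.08).

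Cartilage genes, many of them SOX9 targets, were mostly close to the limit of detection. Of 13 only 4 passed the count filter, of which 3 rose, and Col2a1, Col9a1, Comp and Cnmd were among the 9 that did not pass. Acan, the aggrecan gene, rose from 1.20, 0.929, 0.539 and 1.19 CPM to 4.94, 4.77, 4.64 and 6.02 CPM (log2 fold change 2.39 ± 0.23). Col11a1 rose by 1.61 ± 0.04 from 234.4 ± 13.1 CPM (SD, n = 4), and Col11a2 by 0.60 ± 0.19, a call lost without untreated replicate 2, untreated replicate 3 or treated replicate 2 (edgeR adjusted p = 0.064, 0.0548 and 0.055). With 9 of the 13 genes not tested, these counts say little about the list.

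Tendon genes split in direction. Of 9, 6 were tested, with 2 rising and 3 falling. Col1a1 and Col1a2, the type I collagen chains, rose by 0.62 ± 0.04 and 0.41 ± 0.03. Fmod, the fibromodulin gene of tendon matrix, fell from 71.7, 77.9, 70.9 and 76.5 CPM to 25.5, 24.5, 21.3 and 21.4 CPM, a log2 fold change of -1.68 ± 0.06. The treated libraries were all far below the untreated ones. Tnmd, the tenomodulin gene that marks mature tendon cells and a known target of SCX and MKX, averaged 0.0647 CPM in untreated and 0.0176 CPM in treated libraries and was not tested, and Kera had no read.

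Most bone genes had few reads or none. Of 12, 3 were tested, and Sp7, Ibsp, Bglap and Bglap2 had no read in any library. Spp1, which encodes osteopontin, rose from 38.2, 43.6, 45.4 and 56.2 CPM to 92.8, 75.9, 99.9 and 101.9 CPM (log2 fold change 1.01 ± 0.09), with no overlap. Alpl, the alkaline phosphatase gene of mineralising cells, had a log2 fold change of -1.47 ± 0.36 from 1.31 CPM. It passed the count filter through its untreated libraries alone, so it had to differ and its call under the filter says little. With no filter its log2 fold change was again -1.47, and the p-value of that fit (edgeR adjusted p = 0.00233) adds no evidence, as for Meox2.

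Of 6 genes that have been placed downstream of MEOX factors, 4 were tested and 3 rose, where 17.6% of all genes tested were called higher. Cdkn2a, a cell cycle inhibitor gene, rose from 4.45, 5.17, 4.72 and 6.26 CPM to 16.4, 17.3, 14.2 and 15.8 CPM (log2 fold change 1.62 ± 0.12). Cdkn1a rose by 0.45 ± 0.04, and Postn, the periostin gene of activated fibroblasts, by 0.38 ± 0.03. Tbx18 had a log2 fold change of -0.11 ± 0.05 (edgeR adjusted p = 0.0876) and was called down with library totals and without untreated replicate 1. The somite genes Nkx3-2 and Uncx were not tested, with mean levels of at most 0.0176 CPM.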

How the data were processed

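Gene expression was measured by poly(A) RNA sequencing in 8 libraries, 4 untreated and 4 treated with TGF-β1, each assigned to its group from the labels. The deposited table of counts holds whole reads per gene and was not normalized. The deposited FPKM table gives the authors' values per gene length. Per the submitters' processing notes, the tools were CASAVA, HISAT2 and featureCounts of Subread, and the build GRCm38, whereas the design text gives mm39. Gene coordinates in the file overlap the same gene in GENCODE M39 for 99.9% of 56017 shared genes, so they are given as GRCm39.

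Genes were kept by filterByExpr (minimum count 10, minimum total 15), which left 13960 genes. Counts were TMM-scaled and tested with the edgeR 4.0.16 quasi-likelihood test (limma 3.58.1, R 4.3.3), on a model of treatment alone, and p-values were adjusted across the 13960 genes by Benjamini-Hochberg. The SE is the size of the log2 fold change over the square root of F. The fits were tested on simulated data. CPM uses TMM-scaled library totals. Ratios of related genes were compared with exact two-sided permutation tests. The p-values measure the spread between these cultures, except that those of the fit with no count filter were far smaller at similar SEs and were not read as evidence.

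The members and gene lists were chosen with earlier results of these data known. Named were all members, up to 3 called genes of each list with the smallest p (the most abundant where none was called), and the 2 genes closest to each called member among those of at least 5 CPM. Other genes are named as members of a list counted in the text, and the transcription factors above 2-fold were chosen after their values were seen. Alternatives were RLE and library-total scaling, no count filter, DESeq2 1.42.0, limma on log2(FPKM + 1) and log2(FPKM + 0.1), the replicate block and each library left out in turn. With 1 library left out, 3 remain in that group.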

Additional observations from a re-analysis of the deposited data

Results flagged for a closer look

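Of 30 groups of 4 values checked for a library far from the rest (9 genes and 6 ratios in 2 treatment groups), 1 stood out. Meox1 in treated replicate 1 was at 11.6 CPM, while the other treated libraries lay between 15.3 and 15.9 CPM. The gap took 0.85 of the group's range, above Dixon's 95% critical value for 4 samples. Chance gives such a value in about 1 of 20 groups. This library was still above all untreated libraries, and the rise of Meox1 was called without it.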

How the results depend on the processing

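Over 15 alternative fits the 8 tested members gave 120 results, of which 116 kept their direction and call and 4 kept their direction but lost the call, all of them for Sox4 or Sox9. Members called numbered 8 in each full-library alternative except library totals (6), and 7 to 8 with each library left out in turn. All genes called numbered 4517 to 4750 with a library left out. With library totals, 1301 genes were called higher and 3673 lower. The log2(FPKM + 1) scale, which understates low genes, gave Meox2 -0.43, Runx2 0.22 and Mkx 0.80, all still called. With the replicate block 4971 genes and all 8 tested members were called, and it changed no member's call. The labels do not say that a shared number marks a shared litter, so the numbers were not read as pairs. Deviations of same-numbered cultures from their group means had correlations of -0.077 to 0.076. So few cultures cannot decide whether litters were shared. With each library left out, the shift in log2 ratio was 3.12 to 4.03 for Meox1/Meox2, 1.09 to 1.26 for Runx1/Runx2, 1.10 to 1.68 for Runx1/Runx3, -0.06 to 0.53 for Runx2/Runx3, -0.06 to 0.02 for Sox9/Sox4 and -0.27 to -0.03 for Scx/Mkx. The Runx2/Runx3 and Sox9/Sox4 shifts changed sign within these ranges. Depth limits Meox2 and Runx3 most.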
